A study of Mus musculus with 34 samples.

Results

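The core of intraflagellar transport complex B (IFT-B) was followed through its mRNAs in mouse ependymal cultures that lacked one of the transcription factors Rfx1, Rfx2 or Rfx3. The members were Ift22, Ift27, Ift46, Ift52, Ift74, Ift81, Ift88, Ttc26, Ttc30a1 and Ttc30b, taken as the rows of the count table whose Ensembl identifiers map to these symbols. All 10 were found among the 21647 genes of the table, and all 10 passed the filter on low counts in each line.

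The study sequenced bulk RNA of cells dissociated from the lateral ventricular walls of E18.5 embryos, grown to confluency and kept 4 days without serum to differentiate. The groups were Rfx1-/- cultures (4 samples) and their wild-type siblings (4), Rfx2-/- (6) and wild type (8), and Rfx3-/- (6) and wild type (6). The strain is given as C57BL/6 for every sample, while titles also carry the term OF1, which is left unexplained. Whether a replicate stands for another embryo or another culture is not labelled. The p-values therefore measure only the spread between these samples, which may be technical.

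IFT trains carry proteins along the axoneme, the microtubule core of a cilium. IFT-B is the complex linked to kinesin-2 and to movement towards the ciliary tip, while IFT-A is linked to dynein-2 and the way back. The IFT-B core holds a module of IFT88, IFT52, IFT46 and IFT70 and a module built on the IFT74-IFT81 pair. IFT70 is encoded in the mouse by the related genes Ttc30a1, Ttc30a2 and Ttc30b. Ependymal cells carry tufts of motile cilia that they build with these trains, and RFX factors are known to bind X-box motifs in promoters of ciliary genes.

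Promoter sequence was available from RefSeq (build GRCm38.p6) for 8 of the 10 members, and not for Ift81 or Ttc30b. The 5 stretches below are shown because they hold letters of an RFX motif close to the annotated start, and because these genes include Ift88, with the largest knockout differences, and Ift27, which was not called in any line. Each runs from 120 bases before to 30 bases after the start, 5′ to 3′ on the strand of the gene, and capitals mark the motif matches described next.
Ift22: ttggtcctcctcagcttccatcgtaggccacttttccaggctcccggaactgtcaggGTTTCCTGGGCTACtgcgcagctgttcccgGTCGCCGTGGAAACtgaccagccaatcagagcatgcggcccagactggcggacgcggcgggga
Ttc26: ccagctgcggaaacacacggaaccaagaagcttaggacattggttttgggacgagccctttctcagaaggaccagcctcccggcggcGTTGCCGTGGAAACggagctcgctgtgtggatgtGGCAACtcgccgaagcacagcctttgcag
Ift74: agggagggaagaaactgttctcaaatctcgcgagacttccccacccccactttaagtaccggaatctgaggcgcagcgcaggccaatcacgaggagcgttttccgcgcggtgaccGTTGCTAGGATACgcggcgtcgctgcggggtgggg
Ift88: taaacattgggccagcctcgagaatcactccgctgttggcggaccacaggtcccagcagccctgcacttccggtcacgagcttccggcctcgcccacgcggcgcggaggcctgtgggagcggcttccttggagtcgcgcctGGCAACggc
Ift27: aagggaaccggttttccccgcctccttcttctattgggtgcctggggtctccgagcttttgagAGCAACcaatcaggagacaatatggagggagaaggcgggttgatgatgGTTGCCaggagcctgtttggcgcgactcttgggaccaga

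These stretches lie at chr5:136908030-136908179 (plus strand) for Ift22, chr6:38381404-38381553 (plus) for Ttc26, chr4:94614371-94614520 (plus) for Ift74, chr14:57423951-57424100 (plus) for Ift88 and chr15:78174052-78174201 (minus) for Ift27. Promoter windows of 300 bases, from 250 before to 50 after the start, were searched on both strands in all 32851 RefSeq entries. The X-box letters GTNNCCNNNGNAAC were found in 2 of the 8 member windows, against 2.17% of all windows. Ift22 held them at positions -33 to -20 and, on the opposite strand, at -63 to -50, and Ttc26 held them at -33 to -20. The form that is 1 base shorter, GTNNCCNNGNAAC, stood in Ift74 at -5 to 8 on the opposite strand, against 1.56% of all windows, and the form that is 1 base longer, GTNNCCNNNNGNAAC, in none of the 8, against 0.731%. The hexamer GTTGCC, which is the left arm of many X-boxes, was present in Ttc26, Ift88 and Ift27, which is 3 of the 8, against 12.5% of all windows. The hexamer GTTGCT was present in Ift27, Ift52, Ift74 and Ttc30a1, which is 4 of the 8, against 14.8%. In Ttc26 a hexamer lies inside the X-box match and another at 2 to 7, and in Ift74 it lies inside the shorter match. The Ift46 window held none of these letters. Its stretch, at chr9:44772889-44773038 (plus), lies inside the annotated gene, which starts at 44767908, so sequence at that upstream start was not searched. A match describes the letters only, and binding was not measured.

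**Figure D1:**
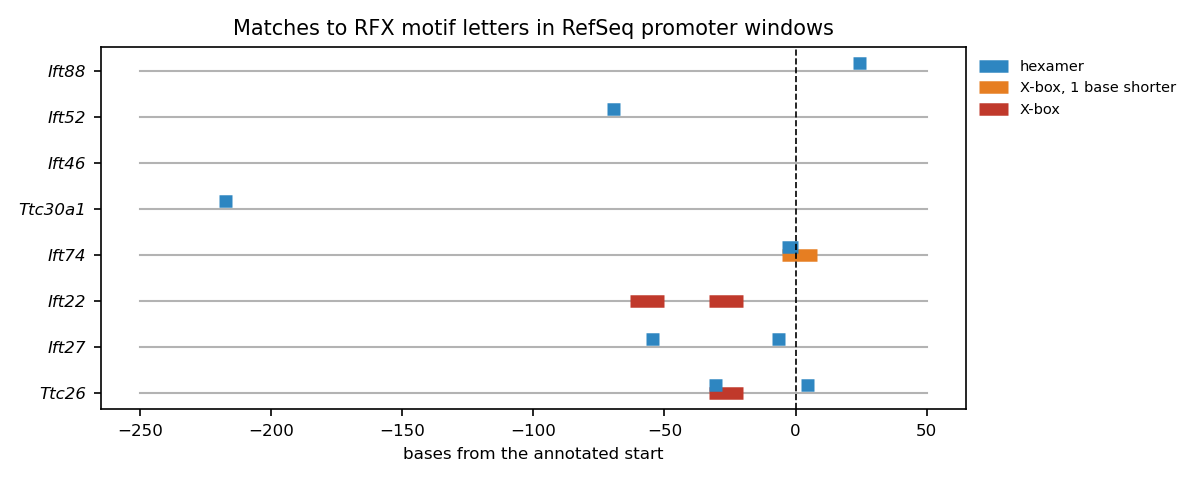
Matches to the RFX motif letters in the RefSeq promoter windows of the 8 members that have one, plotted by distance in bases from the annotated start (dashed line), with 1 row per gene and colours for the X-box, its shorter form and the hexamers. Ift22 holds X-box matches at -33 and -63, Ttc26 at -33, and Ift46 holds none.

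Library totals ran from 18.2 to 53.4 M counts, which puts each member at 304 counts or more in every library. Levels are given as CPM, which are counts scaled to the size of each library with TMM factors, and differences as log2 of knockouts over wild types. The targeted mRNA was below every wild type in each line. Rfx1 averaged 25.3 ± 4.94 CPM in Rfx1 knockouts and 66.8 ± 10.6 CPM in wild types (SD, n = 4 each), though its adjusted p of 0.0687 missed the threshold. Rfx2 averaged 49.2 ± 4.46 CPM in Rfx2 knockouts and 106 ± 14.8 CPM in wild types (SD, n = 6 and 8), and Rfx3 averaged 39.7 ± 9.13 CPM in Rfx3 knockouts and 175 ± 17.4 CPM in wild types (SD, n = 6 each). In Rfx3 knockouts the Rfx1 and Rfx2 mRNAs were lower too, by -0.45 (SE 0.11, adjusted p = 0.0111) and by -0.56 (SE 0.12, adjusted p = 0.00861) as log2. Rfx3 had 161 to 211 CPM in Rfx1 knockouts, against 139 to 157 CPM in wild types. Rfx2 had 115 to 157 CPM there, against 113 to 130 CPM, and neither passed the threshold. For Rfx1 and Rfx3 in the Rfx2 line, knockouts and wild types overlapped. Foxj1, the forkhead factor that marks cells with motile cilia, stood between 639 and 2018 CPM in all 34 libraries. Some libraries stood apart by markers of other cells. Pdgfra, which marks oligodendrocyte precursors, was between 64.5 and 100.4 CPM in Rfx2 knockout replicates 1 to 3 and wild-type replicates 1 and 2, and between 39.8 and 134 CPM in Rfx3 knockout replicates 1, 4, 5 and 6 and wild-type replicate 6. In the other libraries of these lines it did not exceed 10.1 CPM.

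The members differed widely in level per exon length. That length joined all annotated exons of a gene, which can exceed the mRNA present, so the order between genes is approximate. On the scale of CPM per kb of exon, Rfx3 wild types had 63.4 ± 3.05 for Ttc30b, 59.9 ± 3.41 for Ift74 and 53.6 ± 3.29 for Ift22 (SD, n = 6). These 3 formed the top of the order in the wild types of all 3 lines, with ranges that overlapped between neighbours. Ift52 came next at 32.4 ± 0.824, apart from its neighbours on both sides in Rfx1 and Rfx3 wild types, while its range touched that of Ift22 in Rfx2 wild types. Ift81 followed at 24.5 ± 1.01. Ift46 at 20.2 ± 2.25, Ift88 at 18.6 ± 1.16 and Ift27 at 18.6 ± 0.763 had overlapping ranges, and their order changed from line to line. Ttc26 stood at 11.8 ± 0.790. Ttc30a1 was the lowest member in each line, at 6.57 ± 0.590 per kb in Rfx3 wild types and 4.51 ± 0.511 in Rfx2 wild types (n = 8).

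**Figure D2:**
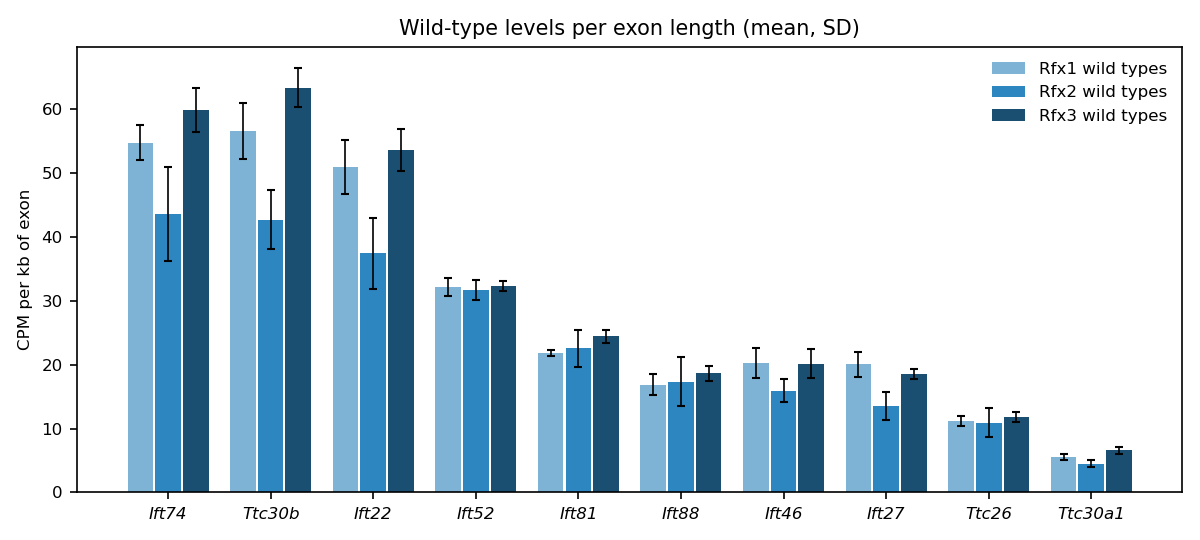
Mean level of each member in the wild types of the Rfx1, Rfx2 and Rfx3 lines (4, 8 and 6 libraries), in CPM per kb of exon, with bars of 1 SD. Ttc30b, Ift74 and Ift22 are highest and Ttc30a1 is lowest in each line.

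The wild types were themselves unlike between lines. A test over the 3 wild-type groups called 6 of the 10 members, which is near the share of 57.7% over all genes. These were Ift22 (adjusted p = 0.00627), Ift27 (0.000906), Ift46 (0.0341), Ift74 (0.00279), Ttc30a1 (0.000227) and Ttc30b (0.000143). Ift27, for example, averaged 57.5 ± 5.65 CPM in Rfx1 wild types, 38.8 ± 6.22 CPM in Rfx2 wild types and 53.1 ± 2.18 CPM in Rfx3 wild types (SD, n = 4, 8 and 6). The other 4 were not called, and Ift52 lay closest, at 90.2 ± 4.05, 88.96 ± 4.37 and 90.7 ± 2.31 CPM. Line and any batch cannot be told apart here, so each knockout was compared with the wild types of its own line.

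The locus and the counting set limits for a few members. Ttc30b (chr2:75935849-75938585), Ttc30a2 and Ttc30a1 (chr2:75978247-75981967) are single-exon genes close together on the minus strand. Of the 50-base windows along Ttc30a1, 31.8% occur word for word in Ttc30a2 or Ttc30b, and of those along Ttc30b, 34.8% occur in either of the other 2. How reads that fit several copies were counted is not given in the sources used here, so the values of both genes are uncertain to that extent. Ttc30a2, which is no member, had between 2 and 18 counts per library. Ift88 (chr14:57424062-57517936) shares 67 bases, 1.45% of its exon length, with the antisense gene Ift88os, and without a stated strand the reads of the pair cannot be told apart there.

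Removing Rfx2 lowered most of the core. By edgeR's quasi-likelihood test with Benjamini-Hochberg adjustment over all genes and a threshold of 0.05, 9 of the 10 members fell in Rfx2 knockouts, against 18.4% of 14305 genes tested, and none rose, against 13.9%. The median log2 difference of the 10 was -0.46, beside 0.01 over all genes tested. In 5 of the 10, every knockout was below every wild type, which held for 6.69% of all genes. In these bulk samples, fewer multiciliated cells and less RNA per cell cannot be told apart.

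Within the IFT88 module, Ift88, whose disruption in the Tg737 mouse is a classic cause of defective cilia, moved furthest. It had 41.1 to 52.8 CPM in Rfx2 knockouts (median 48.4, n = 6), against 53.7 to 113 CPM in wild types (median 80.2, n = 8). The 2 lowest wild types, replicates 1 and 5 at 53.7 and 63.5 CPM, came nearest to the knockouts without reaching them. The log2 difference was -0.77 (SE 0.14, adjusted p = 0.000941), or 58.8% of the wild-type level. Ift46, which links cargo to the module, had 65.9 to 73.6 CPM in Rfx2 knockouts (median 69.6), against 84.1 to 120.0 CPM in wild types (median 105). Its groups stood apart, with a log2 difference of -0.57 (SE 0.07, adjusted p = 0.000121). Ttc30b had 76.5 to 86.9 CPM in Rfx2 knockouts (median 83.6), against 97.3 to 136 CPM in wild types (median 118), again without overlap (-0.52, SE 0.07, adjusted p = 0.000198). Ift52, the scaffold of the module, had 74.2 to 79.0 CPM in Rfx2 knockouts (median 77.4), against 81.0 to 96.4 CPM in wild types (median 89.2). This was a small change, to 85.1% of the wild-type level, but its SE was the smallest of the 10 and no library overlapped (-0.23, SE 0.04, adjusted p = 0.000466). Ttc30a1 had 12.95 to 16.6 CPM in Rfx2 knockouts (median 14.3), against 14.1 to 19.9 CPM in wild types (median 16.6). Only knockout replicate 1 was below every wild type, and the call (-0.23, SE 0.08, adjusted p = 0.0395) was lost with the replicate number as a block (-0.21, adjusted p = 0.0836).

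Within the module of the IFT74-IFT81 pair, which binds tubulin, both partners fell in Rfx2 knockouts. Ift74 had 72.4 to 86.3 CPM (median 82.3), against 91.6 to 153 CPM in wild types (median 115), with no overlap (-0.54, SE 0.10, adjusted p = 0.00131). Ift81 had 88.1 to 109.6 CPM (median 102), against 105 to 156 CPM in wild types (median 137), where 3 of 6 knockouts were below every wild type (-0.40, SE 0.09, adjusted p = 0.00306). Ift22, a small GTPase-like subunit that sits on this pair, had 95.6 to 115 CPM in Rfx2 knockouts (median 106), against 107 to 170.2 CPM in wild types (median 138), and fell by 0.38 (SE 0.09, adjusted p = 0.00663). Ift27, the other small GTPase-like subunit, acts with IFT25 in the exit of the BBSome and its cargo from cilia. It had 28.9 to 36.7 CPM in Rfx2 knockouts (median 33.3), against 32.1 to 49.1 CPM in wild types (median 38.1). With a log2 difference of -0.25 (SE 0.10, adjusted p = 0.0699) it was the 1 member that missed the threshold, and it passed with the replicate number as a block (-0.25, adjusted p = 0.0390). Outside this module, Ttc26 encodes IFT56, which rides on IFT46 and is known for carrying motility proteins into the cilia of Chlamydomonas. It had 30.7 to 37.4 CPM in Rfx2 knockouts (median 33.3). Its wild types ranged from 34.4 to 71.4 CPM (median 50.6), so that only wild-type replicate 1 lay within the knockout range (-0.62, SE 0.13, adjusted p = 0.00187).

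**Figure D3:**
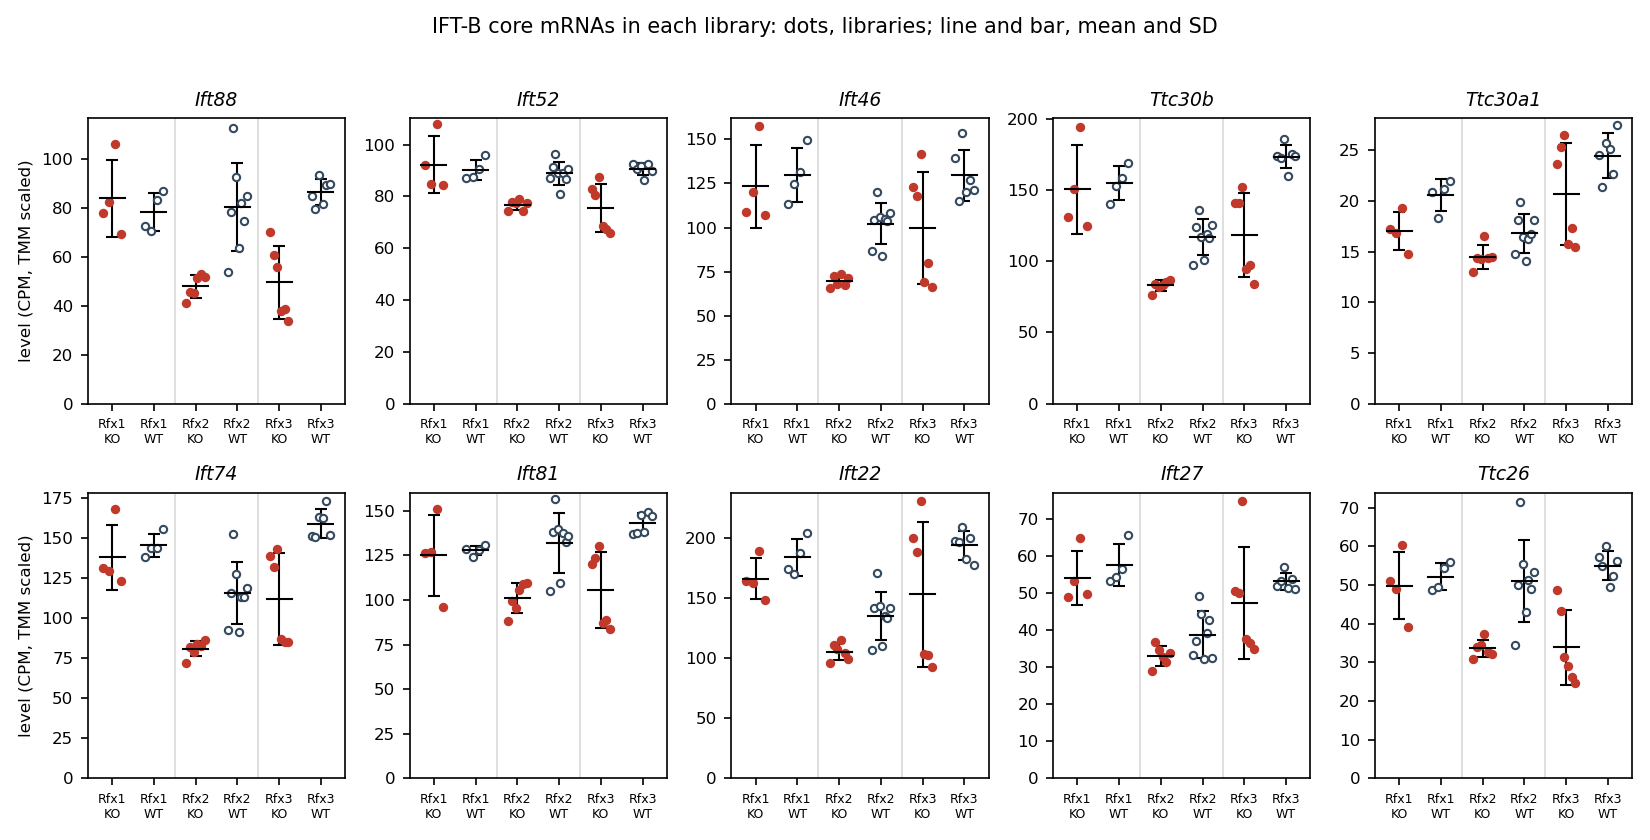
Level of each member in every library, in CPM with TMM scaling, with knockouts (filled) left of the wild types (open) of the same line and with the mean and 1 SD drawn beside the points. Rfx2 knockouts lie close together below the mean of their wild types, and below every wild type in 5 of the 10 members. Rfx3 knockouts fall into a higher and a lower set of 3 for most members.

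The wild types of the Rfx2 line varied together. The mean over the 10 members, as log2 relative to the wild-type mean, was -0.29 in wild-type replicate 1, -0.25 in replicate 5 and 0.32 in replicate 3, while the knockouts ran from -0.56 to -0.33. Foxj1 followed, at -0.45, -0.23 and 0.40 in the same 3 wild types. Over the groups, Foxj1 was lower in Rfx2 knockouts (-0.62, SE 0.11, adjusted p = 0.000978), and so was Mcidas, an inducer of multiciliated cells (-1.49, SE 0.24, adjusted p = 0.000480). Of the 10 ependymal markers, 9 were lower, with summed levels of 7030 to 7930 CPM in knockouts and 7779 to 9922 CPM in wild types. Vim makes up most of these sums, and without it they were 863 to 1128 CPM in knockouts and 1218 to 2545 CPM in wild types. Of 7 astrocyte markers 4 were higher, with sums of 6037 to 11042 CPM in knockouts and 4625 to 8524 CPM in wild types. The sums of oligodendrocyte lineage markers overlapped, at 316 to 691 CPM in knockouts and 410 to 654 CPM in wild types, with 1 of 8 tested markers higher and 1 lower, and Mog under 1 CPM in all of them. No microglia marker of 7 was called, at sums of 319 to 1106 CPM in knockouts and 318 to 1040 CPM in wild types. Of 4 tested fibroblast and meningeal markers 1 was higher (Dcn) with a list median of 1.52, of 3 choroid plexus markers 1 was lower (Clic6), and 0 of 7 neuron and 0 of 2 endothelial markers were called. The part of these cells in the members' differences was not tested. Without the libraries with Pdgfra above 30 CPM, which left 3 knockouts and 6 wild types, 8 of the 10 members were lower, against 15.7% of all genes.

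Removing Rfx3 lowered 6 of the 10 members, against 12.9% of 14340 genes tested, and none rose, against 10.6%. The median log2 difference of the 10 was -0.42, beside 0.02 over all genes tested. In 5 members every knockout was below every wild type, which held for 9.39% of all genes. The 6 knockouts were far from alike, however. As a mean over the 10 members relative to the wild types, replicates 1, 2 and 3 were at -0.15, -0.20 and -0.09 on the log2 scale, and replicates 4, 5 and 6 at -0.78, -0.77 and -0.89. The 6 wild types ran from -0.06 to 0.10.

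Ift88 was again the member with the largest difference. It had 70.2, 60.8 and 55.97 CPM in Rfx3 knockout replicates 1 to 3 and 37.9, 38.5 and 33.6 CPM in replicates 4 to 6, against 79.5 to 93.3 CPM in wild types (median 86.9, n = 6). All 6 knockouts were below every wild type (-0.81, SE 0.16, adjusted p = 0.00581, or 57.0% of the wild-type level). Ttc26 behaved alike, with 48.6, 43.2 and 31.3 CPM in replicates 1 to 3 and 29.1, 26.1 and 24.7 CPM in replicates 4 to 6, against 49.5 to 59.9 CPM in wild types (median 55.5). Replicate 3 stood with the low knockouts for Ttc26 but not for the other members (-0.71, SE 0.16, adjusted p = 0.00815). Ttc30b had 84.1 to 152 CPM in Rfx3 knockouts (median 119), against 160 to 186 CPM in wild types (median 174), without overlap (-0.56, SE 0.14, adjusted p = 0.0128). The tubulin-binding pair fell by similar amounts. Ift74 had 85.2 to 143 CPM (median 109.8), against 151 to 173 CPM in wild types (median 157), a log2 difference of -0.51 (SE 0.14, adjusted p = 0.0203). Ift81 had 83.8 to 130.4 CPM (median 104), against 137 to 149 CPM in wild types (median 143), a difference of -0.45 (SE 0.11, adjusted p = 0.0133). Both pairs of groups stood apart. Ift52 fell the least of the called members, with 65.98 to 87.3 CPM in Rfx3 knockouts (median 74.6), against 86.4 to 92.6 CPM in wild types (median 91.2), and only knockout replicate 3 reached the wild-type range (-0.27, SE 0.07, adjusted p = 0.0170).

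The other 4 members were not called in Rfx3 knockouts, and in each of them replicates 1 to 3 overlapped the wild types or lay beside them. Ift46 had 66.0 to 142 CPM (median 98.8), against 115 to 154 CPM in wild types (median 124), a log2 difference of -0.39 (SE 0.18, adjusted p = 0.133). Ift22 had 92.6 to 230.4 CPM (median 146), against 177 to 209 CPM in wild types (median 197), a difference of -0.35 (SE 0.21, adjusted p = 0.249). For Ift22 the highest and the lowest library of the line were both knockouts, replicates 3 and 6. Ift27 had 74.8 CPM in knockout replicate 3 and 34.9 to 50.4 CPM in the other knockouts, against 51.2 to 57.0 CPM in wild types (-0.18, SE 0.16, adjusted p = 0.446). That 1 library decided the call, since without it Ift27 fell by 0.35 (adjusted p = 0.0182), and so did Ift46, by 0.51 (adjusted p = 0.0325). Ttc30a1 had 15.5 to 26.5 CPM (median 20.5), against 21.3 to 27.4 CPM in wild types (median 24.8), a difference of -0.26 (SE 0.14, adjusted p = 0.206).

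Knockout replicates 4 to 6, which were low in all 10 members, were also low in the regulators. Foxj1 was at -0.07, -0.11 and -0.15 relative to the wild types in replicates 1 to 3 and at -1.04, -1.03 and -1.19 in replicates 4 to 6. For Mcidas the values were 0.02, -0.02 and -0.46 in replicates 1 to 3, and -2.18, -2.02 and -2.75 in replicates 4 to 6. The genes of the axonemal dynein heavy chains, the motors of ciliary beating, were not split in that way, with means of -0.76, -0.76 and -2.04 in replicates 1 to 3 and -1.69, -1.78 and -2.29 in replicates 4 to 6. Pdgfra was at 39.8, 4.91 and 5.14 CPM in replicates 1 to 3 and at 99.9, 134 and 45.2 CPM in replicates 4 to 6. Gfap, the intermediate filament of astrocytes, was at 1151, 721 and 647 CPM in replicates 1 to 3 and at 2187, 2382 and 2179 CPM in replicates 4 to 6. Wild-type replicate 6 had 102 CPM of Pdgfra and 2086 CPM of Gfap, and its mean over the 10 members was 0.00 relative to the wild types. Over the whole lists, 2 of 8 tested oligodendrocyte lineage markers were higher, with sums of 627 to 885 CPM in knockouts and 561 to 790 CPM in wild types and Mog under 1 CPM throughout. Of 6 tested astrocyte markers 2 were higher, with sums of 2211 to 5077 CPM in knockouts and 1944 to 4607 CPM in wild types. Of the 10 ependymal markers 4 were lower and 0 higher, with a list median of -0.92. Their sums were 8118 to 10174 CPM in knockouts and 7975 to 9192 CPM in wild types, most of it Vim (0.27, adjusted p = 0.0584). Without Vim the sums were 832 to 2328 CPM in knockouts and 2466 to 2974 CPM in wild types, with no overlap. Of 3 tested choroid plexus markers 2 were lower (Folr1 and Clic6), and of 8 neuron markers 2 were higher and 1 lower. None of 4 fibroblast and meningeal markers, with a median of 1.53, of 7 microglia markers or of 2 endothelial markers was called. The part of these cells in the result was not tested. With the libraries of Pdgfra above 30 CPM left out, 2 knockouts and 5 wild types remained, and Ift88 was the 1 member still called (-0.57, adjusted p = 0.0184), against 3.65% of all genes called lower. With replicates 1 to 4 alone, 0 of the 10 members were called, against 0.957% of all genes called lower, and Ift88 differed by -0.60 (adjusted p = 0.103).

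**Figure D4:**
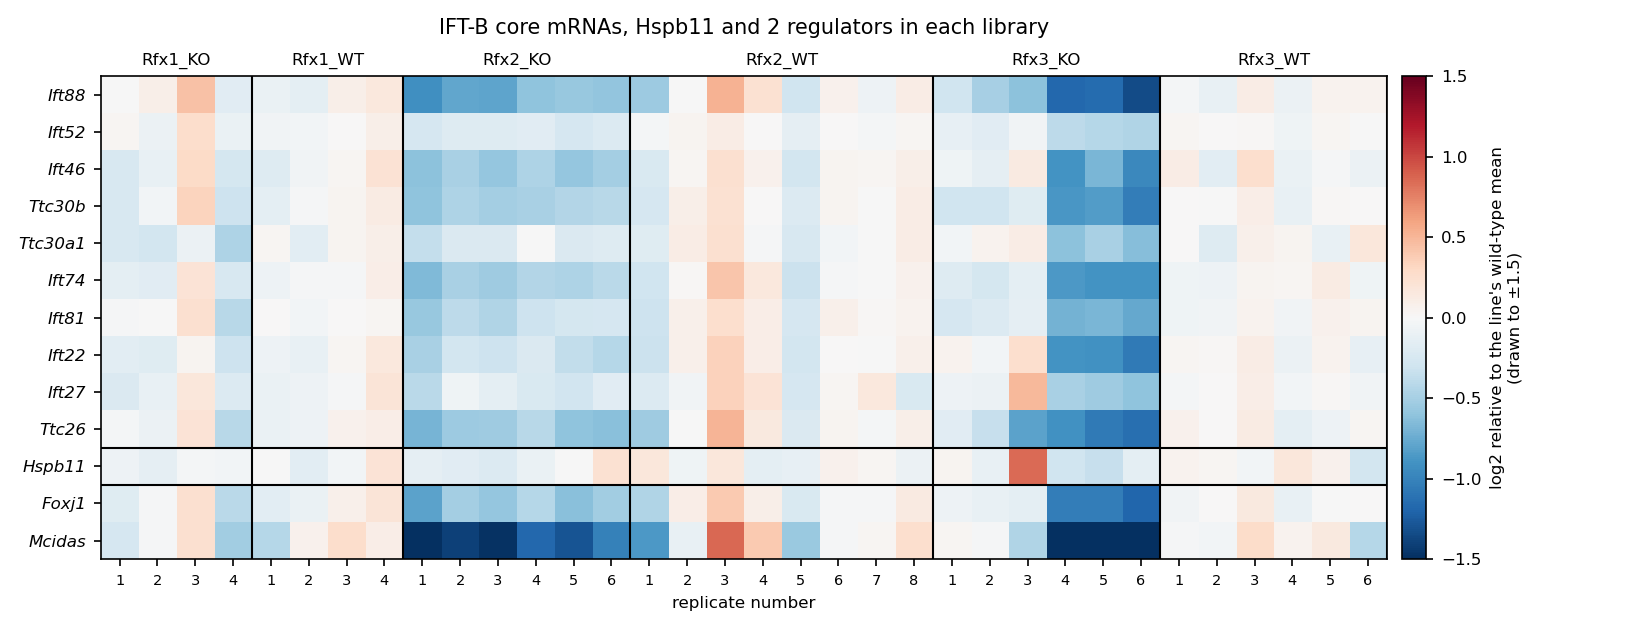
Level of the 10 members, Hspb11, Foxj1 and Mcidas in every library as log2 relative to the wild-type mean of the line, by group and replicate number, with colours drawn to ±1.5. Rfx3 knockout replicates 4 to 6 are low throughout except in Hspb11, and replicates 1 to 3 are nearer to 0.

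By the same test, no member was called in Rfx1 knockouts. The Rfx1 mRNA itself missed the threshold too, at a mean of 25.3 CPM in knockouts and 66.8 CPM in wild types. The call rate over all genes was 0.00723% of 13830, and 1 member (Ttc30a1) had an unadjusted p below 0.05, as had 2.03% of all genes. DESeq2 called none of the 10 either. The median log2 difference of the members was -0.07, beside 0.00 over all genes tested, and 8 of the 10 were below 0, as were 48.7% of all genes. Ift88 had 77.7, 82.5, 106 and 69.2 CPM in Rfx1 knockouts, against 72.7, 70.4, 83.0 and 86.7 CPM in wild types. The 2 groups overlapped, and the 95% interval of the log2 difference ran from -0.19 to 0.39 around 0.10. Ttc30a1 had 17.2, 16.8, 19.3 and 14.8 CPM in Rfx1 knockouts, against 20.9, 18.3, 21.2 and 21.9 CPM in wild types. Here 3 of 4 knockouts were below every wild type, and the interval ran from -0.50 to -0.05 around -0.27 (SE 0.10, unadjusted p = 0.0216, adjusted p = 0.9998). For the other 8 members the log2 differences lay between -0.15 (Ift22) and 0.03 (Ift52). The libraries varied together here too, with a mean over the 10 members of 0.21 in knockout replicate 3 and -0.29 in replicate 4 relative to the wild types. The intervals of the 10 members reached down to between -0.50 and -0.15, so declines of that size could not be told from 0 with 4 libraries a group.

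**Figure D5:**
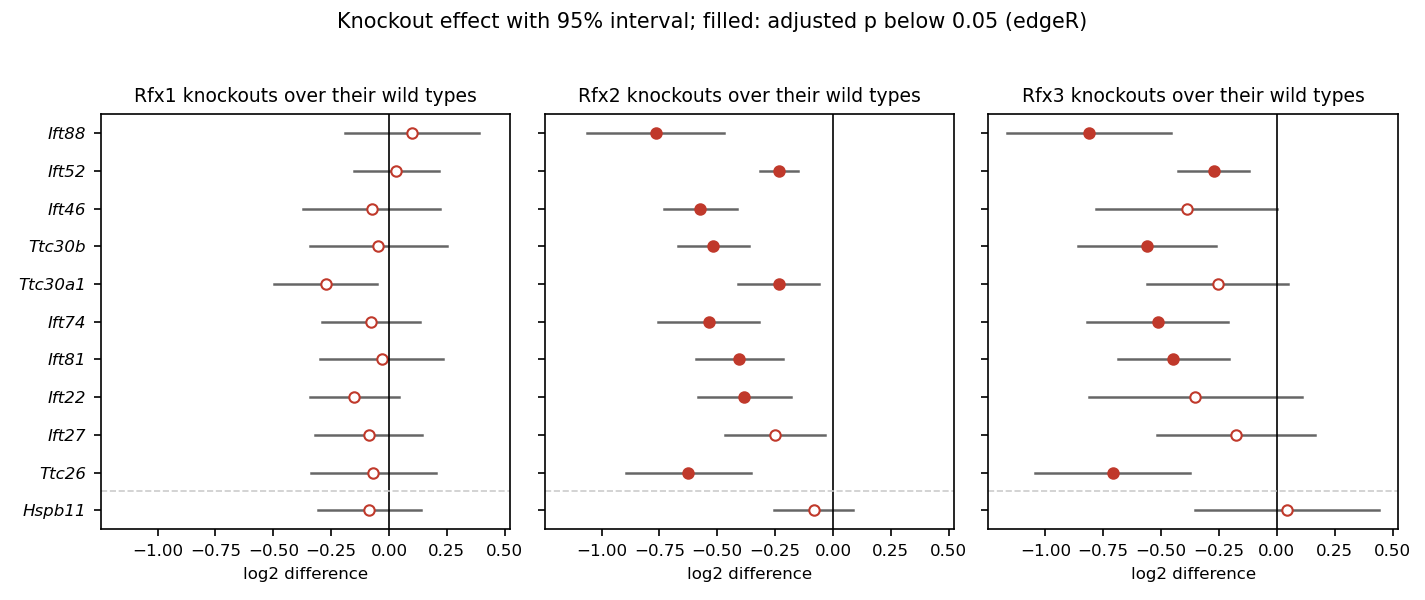
Log2 difference of knockouts over the wild types of the same line for each member and for Hspb11, with 95% intervals, filled where the adjusted p was below 0.05. The Rfx2 panel has 9 filled members and the Rfx3 panel 6, Ift88 being lowest in both, and the Rfx1 panel has none.

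Whether the lines differed in their effect on the core was tested as a difference of knockout differences, in a fit of all 34 libraries. Between Rfx3 and Rfx2 edgeR called no member, against 3.84% of 14833 genes, 0 had an unadjusted p below 0.05 and DESeq2 called none either. The differences for the 10 members lay between -0.10 (Ttc26) and 0.17 (Ift46), and the 95% interval for Ift88 ran from -0.48 to 0.36. Between Rfx3 and Rfx1 the count was 1 member, Ift88, against 7.75% of all genes, while 6 of the 10 had an unadjusted p below 0.05. The effect on Ift88 was lower by 0.90 in the Rfx3 line (SE 0.24, adjusted p = 0.0207). The call was lost without Rfx1 knockout replicate 3 (adjusted p = 0.0848) or Rfx1 wild-type replicate 2 (0.0608). Between Rfx2 and Rfx1 edgeR called no member, against 0.829% of all genes, while 7 of the 10 had an unadjusted p below 0.05. The share of all genes with such an unadjusted p was not computed between lines, so these counts have no background here. Ift88 came nearest with -0.84 (SE 0.23, adjusted p = 0.0808), and DESeq2 called it (adjusted p = 0.0276).

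Partners of single subunits that lie outside the member list did not all move with the members. Hspb11, which encodes IFT25, the partner of IFT27 within the core, was not called in any line. It had 11.5 to 15.8 CPM in Rfx2 knockouts (median 12.3), against 12.02 to 15.1 CPM in wild types (median 13.2), and its log2 difference was -0.08 (SE 0.08, adjusted p = 0.455). The Rfx3 line had 11.2 to 26.2 CPM in knockouts (median 13.1), against 11.8 to 16.2 CPM in wild types (median 14.8), a difference of 0.04 (SE 0.18, adjusted p = 0.888) whose sign turned without knockout replicate 3. In the Rfx1 line the difference was -0.08 (SE 0.10). Rabl2, a small GTPase that binds the IFT74-IFT81 pair, fell with the core. It had 37.1 to 45.8 CPM in Rfx2 knockouts (median 43.8), against 50.7 to 88.2 CPM in wild types (median 71.9), or lower by -0.72 as log2 (SE 0.11, adjusted p = 0.000282). The Rfx3 knockouts had 32.7 to 69.1 CPM (median 50.9), against 73.6 to 87.4 CPM in wild types (median 79.8), a difference of -0.67 (SE 0.18, adjusted p = 0.0186).

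The rest of the IFT machinery was counted in the same tests. Of the 11 peripheral IFT-B and kinesin-2 genes, 10 were lower in Rfx2 knockouts, 6 in Rfx3 knockouts and 0 in Rfx1 knockouts, with medians of -0.45, -0.35 and -0.01. In Rfx2 knockouts the smallest p belonged to Ift20 (-0.61, adjusted p = 0.000242), Ift172 (-0.64, 0.000682) and Cluap1 (-0.47, 0.000765). In Rfx3 knockouts it belonged to the kinesin-2 motor subunits Kif3a (-0.35, 0.00502) and Kif3b (-0.34, 0.00766) and to Traf3ip1 (-0.70, 0.00529), which encodes IFT54. Of the 12 IFT-A and dynein-2 genes, 11 were lower in Rfx2 knockouts, 6 in Rfx3 knockouts and 0 in Rfx1 knockouts, with medians of -0.48, -0.41 and 0.02. The smallest p belonged to Ift43, Wdr34 and Tulp3 in the Rfx2 line (-0.56, -0.42 and -0.48) and to Wdr60, Wdr35 and Ift140 in the Rfx3 line (-0.67, -0.46 and -0.75). The lowest values of the list were those of Ift140 in the Rfx2 line (-0.67) and of Dync2h1 in the Rfx3 line (-0.78). The medians of the core, at -0.46 and -0.42 in Rfx2 and Rfx3 knockouts, lay close to those of both lists. The 14 axonemal dynein heavy chains had medians of -0.91 in Rfx2 knockouts, -1.56 in Rfx3 knockouts and 0.07 in Rfx1 knockouts, with 11, 12 and 0 of them lower. In Rfx1 knockouts 0 genes of the IFT-B and IFT-A lists had an unadjusted p below 0.05 and DESeq2 called 0, while of the heavy chains Dnah7a and Dnah7c, which have near-identical copies, had such a p and DESeq2 called 1. These lists were not tested against each other, and the 3 comparisons do not share wild types.

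The members rose and fell together from library to library within groups. With each group mean removed from log2 CPM, the 45 pairs of members had a median Pearson r of 0.857 over 34 libraries, from 0.584 for Ift27 with Ttc26 to 0.952 for Ift46 with Ttc30b. Without the Rfx3 knockouts, whose libraries spread most, the median was 0.783 over 28 libraries. Ift27 (0.832) and Ttc26 (0.818) followed the mean of the other 9 members least closely, and Ift74 (0.961) most closely. Outside the core, the genes closest in pattern to the mean of the members included Fank1 (r = 0.986), Enkur (0.985), Ccdc151 (0.981) and Lrrc46 (0.980), of 12494 genes ranked. Without the Rfx3 knockouts these 4 had r of 0.975, 0.969, 0.975 and 0.954 and ranks of 4, 12, 5 and 33. Ift172 was closest in those 28 libraries (r = 0.982), while it ranked 656 over all 34 (r = 0.830). Foxj1 ranked sixth at 0.980. Hspb11 had 0.491 and rank 2402, and 0.139 without the Rfx3 knockouts. These values describe shared variation between libraries, which also share depth and cell make-up.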

How the data were processed

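Bulk RNA of 34 mouse ependymal cultures in 6 groups was measured by sequencing, and the authors deposited 1 table of raw read counts for 21647 genes. Per the submitters' processing notes, CASAVA 1.8.2, STAR 2.4 and featureCounts 1.4.6 were used with build GRCm38. Their strand and multi-mapping settings and the annotation release were not given in the sources used here. Library totals of 18.2 to 53.4 M counts set the counting precision.

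Groups were taken from the labels. The 85 pairs of libraries within groups differed by more than counting noise (chi-square per degree of freedom of 4.01 or more). No library was therefore a copy of another, and each was counted as 1 sample. That check cannot tell separate embryos from cultures of the same embryo. Ensembl identifiers were matched to GENCODE M21 (21583 matched, 64 not), which also gave GRCm38 coordinates and exon lengths. Each knockout was compared with the wild types of its own line, without a replicate block, in R 4.3.3 with edgeR 4.0.16: filterByExpr (minimum count 10, minimum total 15), TMM scaling, glmQLFit and the two-sided quasi-likelihood F test, with Benjamini-Hochberg adjustment over all genes tested and a threshold of 0.05. SEs and 95% intervals were derived from that test. Differences between lines and the test over wild types came from 1 fit of all 34 libraries. CPM used TMM factors over all 34, and log2 values relative to the wild types used a pseudocount of 0.5.

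Pairing was checked by correlating deviations from group means between libraries with the same replicate number. In the Rfx2 line every same-number pair had r of 0.171 or more. Knockout replicates 3, 4, 5 and 6 there correlated better with a wild type of another number. For replicate 3, r was 0.261 with its own number and 0.728 with wild-type replicate 2. The numbers therefore do not settle a pairing, and the block was run only as an alternative.

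The members and gene lists were chosen with earlier results of these data known. Genes named are all 10 members, the targeted genes, Foxj1 and Mcidas, Hspb11, Ttc30a2 and Rabl2, the 3 genes of each other IFT list with the smallest p per line, single markers of other cells, and the 5 genes with the highest Pearson r to the members' mean, of which 1 is not reported here. Dnah7a, Dnah7c, Dync2h1, Vim, Dcn, Folr1 and Clic6, and Ift172 for its pattern, were named after their values were seen. Promoter sequence came from RefSeq (GRCm38.p6). The fitting code was tested on simulated data. Alternatives were DESeq2 1.42.0, DESeq2 size factors and upper-quartile scaling in edgeR, no filter, the replicate number as a block, all 34 libraries in 1 fit, replicates 1 to 4 only, each replicate left out, and, chosen after seeing the data, libraries with Pdgfra above 30 CPM left out.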

Additional observations from a re-analysis of the deposited data

Results flagged for a closer look

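The knockout differences of Ift88 differed between 2 lines by a test of the difference itself. The difference was lower in the Rfx3 line than in the Rfx1 line by a log2 value of -0.90 (SE 0.24, edgeR adjusted p = 0.0207), and all 6 Rfx3 knockouts were below their wild types. It was 1 of 10 members called in that comparison, against 7.75% of all genes, so the count is near the background. Without Rfx1 knockout replicate 3 or Rfx1 wild-type replicate 2 the adjusted p was 0.0848 or 0.0608. Of the 60 sets of values given by 10 members in 6 groups, 0 held a library that stood apart by Dixon's test, which chance alone would give in about 1 in 20.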

How the results depend on the processing

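In Rfx2 knockouts between 6 and 10 members were lower over 22 alternatives, against 9 in the analysis as reported. Ttc30a1 lost its call most often, in 11 of 14 fits without 1 library. With replicates 1 to 4 only, the call was lost for Ift22 (adjusted p = 0.0710), Ttc26 (0.0536) and Ttc30a1 (0.139), and in the fit of all 34 libraries for Ift22 (0.0755) and Ttc30a1 (0.152). Hspb11 turned to 0.042 without the libraries with Pdgfra above 30 CPM. In Rfx3 knockouts the count of 6 lower members fell to 0 with replicates 1 to 4 only and to 1 without the libraries with Pdgfra above 30 CPM, where Ift22, Ift27 and Ttc30a1 turned to 0.069, 0.20 and 0.097. Both settings drop low knockout replicates 5 and 6, and the cause was not tested. Leaving out 1 library gave 6 to 8, and Hspb11 ranged from -0.18 to 0.12 there. Between Rfx3 and Rfx1 the count of 1 lower member became 2 with DESeq2 size factors and 3 with DESeq2, and ran from 0 to 5 without 1 library, with 5 when Rfx1 knockout replicate 4 was left out. Between Rfx2 and Rfx1 it became 1 with DESeq2 and ran from 0 to 1, with Ift88 called without Rfx1 knockout replicate 4 (0.0484), Rfx2 wild-type replicate 1 (0.0254) or 5 (0.0379). Between Rfx3 and Rfx2 the Ift88 value ran from -0.19 to 0.061. In Rfx1 knockouts no member was called under any of 14 alternatives. Without 1 library, values there ran from -0.22 to 0.0050 for Ift46, from -0.054 to 0.076 for Ift52, from -0.14 to 0.078 for Ift81, from -0.035 to 0.18 for Ift88, from -0.17 to 0.035 for Ttc26 and from -0.19 to 0.036 for Ttc30b. Over the wild types of the 3 lines 5 to 6 members were called, and that test was not run with the block.

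With the replicate number as a block, the Rfx3 value of Hspb11 turned to -0.012, and in the Rfx2 line Ttc30a1 lost its call and Ift27 gained one (-0.25, adjusted p = 0.0390), which changed no other member's call there. No label says that a number pairs libraries in any line, and the lowest same-number r in the Rfx1 and Rfx3 lines was -0.10 and -0.40.

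Counts over all genes moved too. With replicates 1 to 4 only, 1663 genes were lower and 1085 higher in Rfx2 knockouts, against 2638 and 1988 as reported. In Rfx3 knockouts 137 were lower and 57 higher with that setting and 524 and 175 without the libraries with Pdgfra above 30 CPM, against 1857 and 1517 as reported. There 795 were higher with the block and 2720 in the fit of all 34 libraries. Between Rfx3 and Rfx2 DESeq2 called 502 lower and 411 higher, and the block 131 higher, against 312 and 258 as reported. Between Rfx2 and Rfx1 DESeq2 called 251 and 86 and the block 34 and 17, against 88 and 35 as reported. The Rfx1 count of lower genes was 1 and ran from 0 to 7, and that of higher genes was 0 and ran to 4. Without 1 library, counts of lower and higher genes ran from 1289 to 2844 and from 850 to 2705 in Rfx3 knockouts, from 198 to 525 and from 170 to 436 between Rfx3 and Rfx2, from 174 to 1215 and from 112 to 826 between Rfx3 and Rfx1 (711 and 438 as reported), and from 31 to 211 and from 15 to 54 between Rfx2 and Rfx1. The highest Rfx3 counts came without knockout replicate 3.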
